A study of Mus musculus with 6 samples.

Results

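Cholesterol synthesis and handling was followed through 31 genes of the 54012 listed in an RNA sequencing table of mouse small intestine. The genes were taken by symbol and each was found once: 8 enzymes of the mevalonate steps, 12 enzymes of the sterol steps, 6 genes of sterol sensing and uptake, and 5 genes of luminal sterol transport, storage and export. There were 6 libraries, 3 of wild type mice (WT) and 3 of mice with the genotype label TLR4ΔIEC, all aged 8 to 12 weeks and with a single collection date. The series title asks what the loss of TLR4 from the intestine does to gene expression; TLR4 senses bacterial lipopolysaccharide, and IEC is the usual abbreviation for intestinal epithelial cells. The driver of the deletion, the mouse strain and the stretch of small intestine taken are not given in the sources used here.

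Cells make cholesterol from acetyl-CoA by way of mevalonate, isoprenoid diphosphates and squalene, and they take it up from outside. SREBP2, encoded by Srebf2, is a membrane-bound transcription factor that the escort protein SCAP carries from the endoplasmic reticulum to the Golgi when sterols are low, and the INSIG proteins hold the complex back when sterols are high. Its known targets include most enzymes of the pathway and Insig1 and Srebf2 themselves. In enterocytes, NPC1L1 brings luminal cholesterol into the cell, ABCG5 and ABCG8 pump sterols back into the lumen, and SOAT2 esterifies cholesterol for chylomicrons.

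The targeted gene was read first. Tlr4 (ENSMUSG00000039005) stood at 0.65, 0.57 and 0.70 TPM across WT, against 1.29, 1.22 and 4.81 TPM under the TLR4ΔIEC label, so its level did not follow the label (exact two-sided permutation p = 0.1, the smallest that 3 against 3 allows). The table gives gene-level values, so no deleted exon can be read from it, and directions below compare libraries by their labels. TPM scale each library to the same total and keep no read depth, so depth is unknown. The library labelled TLR4ΔIEC replicate 2 stood apart, with 12221 genes reaching 1 TPM, where the other 5 libraries had 13197 to 13634. It had the highest score on the first principal component (62.4, against 5.62 and 21.4 for TLR4ΔIEC replicates 1 and 3 and −34.4 to −22.4 for WT). On the second component TLR4ΔIEC replicate 1 stood apart (−47.5, against −12.6 to 25.7 in the other 5). Replicate 1 correlated at 0.943 to 0.948 with WT libraries and at 0.939 and 0.941 with TLR4ΔIEC replicates 2 and 3. The epithelial markers Epcam, Cdh1, Vil1, Krt8, Krt18, Krt19, Krt20 and Cldn7 were all present in each library. The pancreatic genes Prss2 and Cpa1 were listed at 0 in each library and the liver gene Alb at no more than 0.18 TPM. Pnlip, Ctrb1 and Serpina1a, also listed for these organs, were at 0 in some libraries and reached at most 0.10, 0.42 and 0.68 TPM. The remaining genes of these lists were detected in each library. Pancreatic Cela1 read 6.27 to 14.5 TPM, and the liver genes Ttr, Cyp2e1 and Apoh 0.97 to 3.39, 0.47 to 6.06 and 0.67 to 2.11 TPM.

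SREBP2 acts on promoters through sterol regulatory elements, usually near a CCAAT box, the binding motif of NF-Y. Start-site sequences were available from RefSeq (GRCm38.p6) for 26 of the 31 genes. No entry was found for Fdps, Fdft1, Sqle, Stard4 and Soat2. The 250 bases before each start were searched on both strands for the classical sterol regulatory element of 10 bases with at most 1 substitution, and for CCAAT. The matches of the 2 motifs did not overlap in any of the 3 genes that hold the first, and a match is a description of letters, not of binding. The first was found in Hmgcs1, Srebf2 and Nsdhl, which is 3 of 26 genes (11.5%) against 1.89% of the 27025 genes in the table. With positions counted from 1 at the 5′ end of the motif, the substitutions were A1C in Hmgcs1, C10T in Srebf2 and C8A in Nsdhl. CCAAT or its complement was found in 22 of 26 genes (84.6%), against 37.5% of all genes, and not in Acat2, Scap, Abcg5 and Abca1. Upstream stretches of 3 genes whose levels are described below are shown, the first pair for their sterol element match and the last as a known SREBP2 target with CCAAT alone. Capitals mark the matches, and each stretch is read 5′ to 3′ on the plus strand and stops before the first annotated exon.
Hmgcs1 (chr13:119690101-119690350): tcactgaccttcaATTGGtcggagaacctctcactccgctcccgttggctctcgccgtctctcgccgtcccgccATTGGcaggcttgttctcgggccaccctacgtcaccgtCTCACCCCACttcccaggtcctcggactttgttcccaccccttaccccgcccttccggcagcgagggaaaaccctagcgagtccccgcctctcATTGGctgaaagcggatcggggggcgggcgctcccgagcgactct
Srebf2 (chr15:82147019-82147180): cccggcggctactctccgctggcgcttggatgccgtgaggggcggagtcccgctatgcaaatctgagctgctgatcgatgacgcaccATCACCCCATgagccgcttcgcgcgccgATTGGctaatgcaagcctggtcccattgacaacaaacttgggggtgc
Insig1 (chr5:28071162-28071362): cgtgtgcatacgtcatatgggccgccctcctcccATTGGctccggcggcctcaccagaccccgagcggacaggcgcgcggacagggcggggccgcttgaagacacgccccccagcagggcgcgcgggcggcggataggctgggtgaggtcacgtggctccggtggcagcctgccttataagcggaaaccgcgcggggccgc

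Most of the 31 genes had higher TPM under the TLR4ΔIEC label: 19 of the 20 synthesis enzymes had positive fold changes, as did all 6 genes of sensing and uptake and 3 of the 5 of transport, storage and export. All 31 passed the filter of a mean of at least 1 TPM. Their median log2 fold change (TLR4ΔIEC minus WT, on log2(TPM + 1)) was 0.72, against 0.16 over the 13458 tested genes. Values were positive for 28 of the 31, and for 9163 of the 13458 tested genes. In 22 genes each of the 3 libraries labelled TLR4ΔIEC lay above each WT library, where 24.1% of all tested genes did so. In none did they all lie below (3.53% of all tested genes). No member passed an adjusted p of 0.05 in limma, where 0.119% of all genes passed; the adjusted p of the members ran from 0.08 to 0.746. At an unadjusted limma p under 0.05, 21 members were higher (67.7% of the 31, against 18.4% of all tested genes) and none was lower (2.77% of all). These counts depend on the scaling: 13 were higher and 2 lower with median-of-ratios scaling (6.32% and 6.16% of all genes), and 6 higher and 3 lower after division by epithelial markers (1.69% and 13.1%).

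The 31 genes summed to 1419, 1271 and 1344 TPM across WT, against 1823, 2591 and 2200 TPM under the TLR4ΔIEC label. The ranges did not overlap, and replicate 2 of TLR4ΔIEC was highest. That library held the highest value of the 6 for 18 of 31 genes, and WT replicate 2 the lowest for 13.

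**Figure D1:**
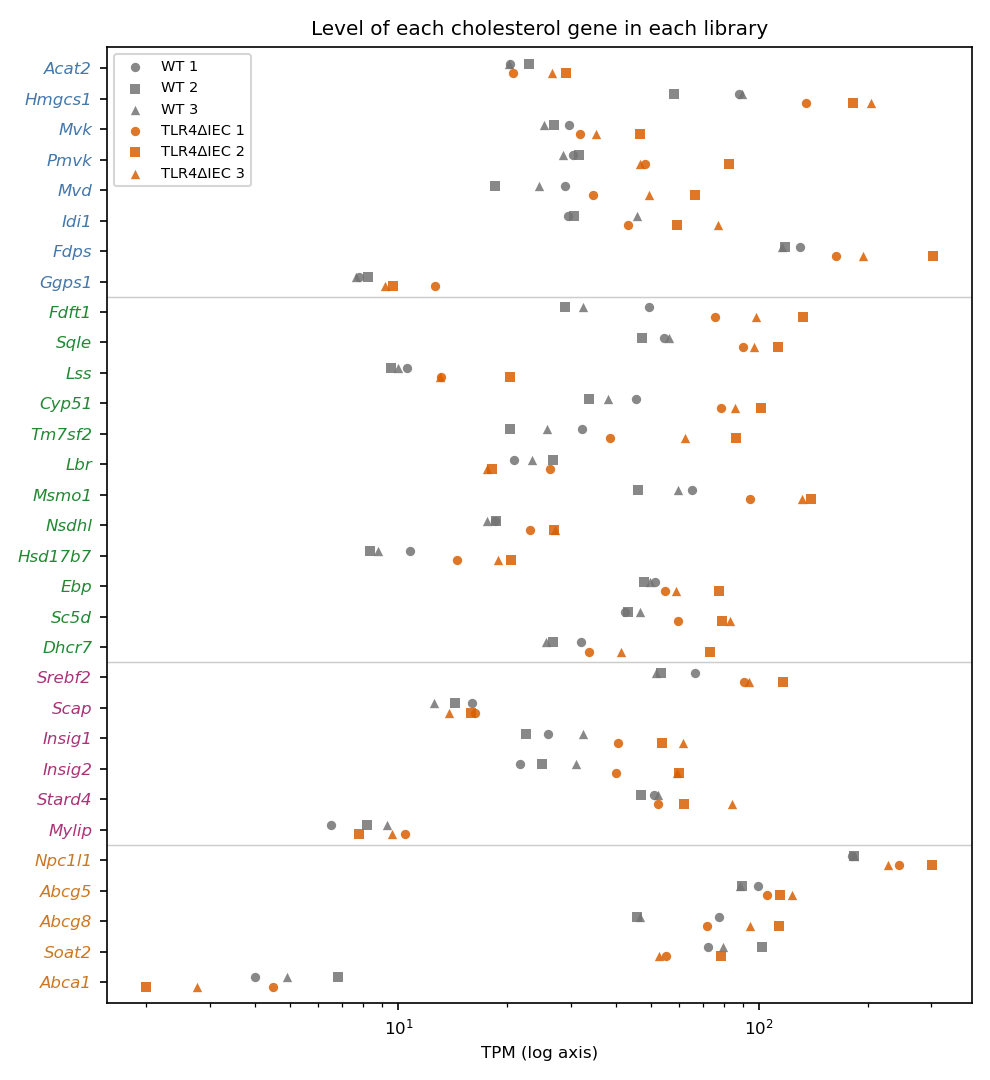
TPM of each of the 31 genes on a log axis in each of the 6 libraries, WT in grey and TLR4ΔIEC in orange, with 1 marker shape per replicate number and gene names coloured by role (mevalonate, sterol, sensing and uptake, transport). For 22 genes the orange markers all lie to the right of the grey ones; Lbr, Soat2 and Abca1 have the opposite order of means.

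The mevalonate steps turn acetyl-CoA into farnesyl and geranylgeranyl diphosphate. All 8 had positive fold changes (median 0.77), 6 had an unadjusted p under 0.05 and 6 had genotypes that did not overlap. Among all tested genes, 18.4% were higher at that limma p and 24.1% lay wholly above WT. Hmgcs1 (ENSMUSG00000093930, chromosome 13, 119690379 to 119708260, plus strand, GRCm38), the HMG-CoA synthase whose promoter is shown above, stood at 88.0, 58.2 and 89.6 TPM across WT, against 135, 182 and 204 TPM under the TLR4ΔIEC label. The lowest of the latter was thus well above the highest WT library. Mean levels of 78.6 ± 17.6 and 174 ± 35.5 TPM (SD, n = 3 each) gave a log2 fold change of 1.14 (95% interval 0.59 to 1.69, limma adjusted p = 0.094).

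Pmvk and Mvd, the phosphomevalonate kinase and the mevalonate diphosphate decarboxylase, came next. Pmvk (chromosome 3, 89454541 to 89469013) read 30.4, 31.7 and 28.6 TPM across WT, against 48.3, 82.6 and 46.8 TPM under the TLR4ΔIEC label. Mvd (chromosome 8, 122433601 to 122443422) read 28.9, 18.6 and 24.5 TPM, against 34.7, 66.2 and 49.5 TPM. In both genes replicate 2 of TLR4ΔIEC was the highest library, and the log2 fold changes were 0.90 and 1.01 (limma adjusted p = 0.112 and 0.116). Fdps, the farnesyl diphosphate synthase that feeds both sterols and prenylation, was the most abundant enzyme of the 20, at 130.1, 118 and 115 TPM across WT, against 163, 302 and 194 TPM under the TLR4ΔIEC label (log2 fold change 0.81, limma adjusted p = 0.134). It shares 1124 of 4208 annotated exon bases with Gm43738 on the same strand, whose means were 6.43 and 6.70 TPM.

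The remaining members of this stretch differed less. Mvk, the mevalonate kinase, read 29.6, 27.0 and 25.3 TPM and then 31.9, 46.6 and 35.3 TPM, without overlap (log2 fold change 0.44). Idi1, the isopentenyl diphosphate isomerase, overlapped between genotypes because WT replicate 3, at 45.8 TPM, lay above TLR4ΔIEC replicate 1, at 43.4 TPM (log2 fold change 0.73). Ggps1, which leaves the sterol route to make geranylgeranyl diphosphate, was low at 7.76, 8.25 and 7.61 TPM across WT, against 12.7, 9.65 and 9.19 TPM under the TLR4ΔIEC label. Its values did not overlap, but its interval reached below 0 (−0.03 to 0.75). Acat2, the cytosolic thiolase that opens the route, had a log2 fold change of 0.24 (−0.14 to 0.63) with overlapping libraries, and its tandem copy Acat3 averaged 0.0733 and 0.0533 TPM.

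Sterol steps carry farnesyl diphosphate through squalene and lanosterol to cholesterol. Of 12 genes, 11 had positive fold changes and non-overlapping libraries, where 24.1% of all tested genes lay wholly above WT. An unadjusted limma p under 0.05 was reached by 10, all higher, against 18.4% of all tested genes (median log2 fold change 0.80). Fdft1 (ENSMUSG00000021273, chromosome 14, 63145150 to 63179578, minus strand), the squalene synthase that commits farnesyl diphosphate to sterols, stood at 49.4, 28.9 and 32.5 TPM across WT, against 75.5, 132 and 97.9 TPM under the TLR4ΔIEC label. Averages were 37.0 ± 11 TPM and 102 ± 28.4 TPM (SD, n = 3 per genotype), and its log2 fold change of 1.44 (0.80 to 2.07, limma adjusted p = 0.0927) was the highest of the 31. Fdft1 shares 774 of 4227 exon bases with Ctsb on the opposite strand. Ctsb, a lysosomal protease, averaged 143 and 241 TPM, and without a stated strand setting reads of the 2 genes cannot be told apart there.

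Sqle and Cyp51 had the smallest p-values among the members. Sqle (ENSMUSG00000022351, chromosome 15, 59315077 to 59331192, plus strand), the squalene epoxidase and a control point of the pathway, read 54.3, 47.5 and 56.1 TPM across WT, against 90.2, 113 and 96.8 TPM under the TLR4ΔIEC label. Cyp51 (ENSMUSG00000001467, chromosome 5, 4081145 to 4104746, minus strand), the lanosterol demethylase, read 45.6, 33.6 and 38.0 TPM and then 78.2, 101 and 85.9 TPM. Both genes were tight within a genotype relative to the gap between genotypes. The log2 fold changes were 0.91 (0.57 to 1.25) and 1.16 (0.77 to 1.55), each with a limma adjusted p of 0.08.

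The enzymes that trim methyl groups from lanosterol followed. Msmo1, the methylsterol monooxygenase (chromosome 8, 64718139 to 64733792), read 65.2, 46.2 and 59.6 TPM across WT, against 94.5, 139.6 and 132 TPM under the TLR4ΔIEC label (log2 fold change 1.08, limma adjusted p = 0.0935). Hsd17b7, the ketosteroid reductase of the same reaction series, read 10.8, 8.36 and 8.76 TPM, against 14.5, 20.6 and 18.9 TPM (0.87 on the log2 scale). Nsdhl, the dehydrogenase between them, kept within 17.6 to 18.6 TPM across WT, against within 23.1 to 27.2 TPM under the TLR4ΔIEC label, a smaller log2 fold change of 0.47. None of the 3 genes overlapped between genotypes.

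Tm7sf2 and Lbr encode sterol reductases for the same step, and their values went different ways. Tm7sf2 (chromosome 19, 6062821 to 6068373) read 32.3, 20.4 and 25.8 TPM across WT, against 38.6, 86.3 and 62.4 TPM under the TLR4ΔIEC label (log2 fold change 1.17, limma adjusted p = 0.115). Lbr (chromosome 1, 181815335 to 181843046), also a receptor of the nuclear lamina, read 20.9, 26.8 and 23.5 TPM and then 26.3, 18.2 and 17.6 TPM (−0.20, interval −0.66 to 0.25). Lbr was the only one of the 20 enzymes with a negative fold change and the only sterol-step gene whose libraries overlapped. The difference between these 2 genes was not tested. Tm7sf2 shares 532 of 4403 exon bases with Vps51 on the same strand, which averaged 22 and 26.8 TPM.

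The last conversions of the pathway had moderate values. Sc5d, the desaturase, read 42.4, 43.3 and 46.7 TPM across WT, against 59.4, 79.0 and 82.8 TPM under the TLR4ΔIEC label (log2 fold change 0.71, limma adjusted p = 0.101). Dhcr7, the terminal reductase, read 32.0, 26.9 and 25.7 TPM and then 33.8, 73.1 and 41.4 TPM, so that its gap between genotypes was narrow and TLR4ΔIEC replicate 2 lay far above the rest (0.72). Lss, the lanosterol synthase, had a log2 fold change of 0.55 at 10.0 and 15.5 TPM on average. Ebp, the sterol isomerase, had 0.33 with an interval of −0.05 to 0.72, although its libraries did not overlap.

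**Figure D2:**
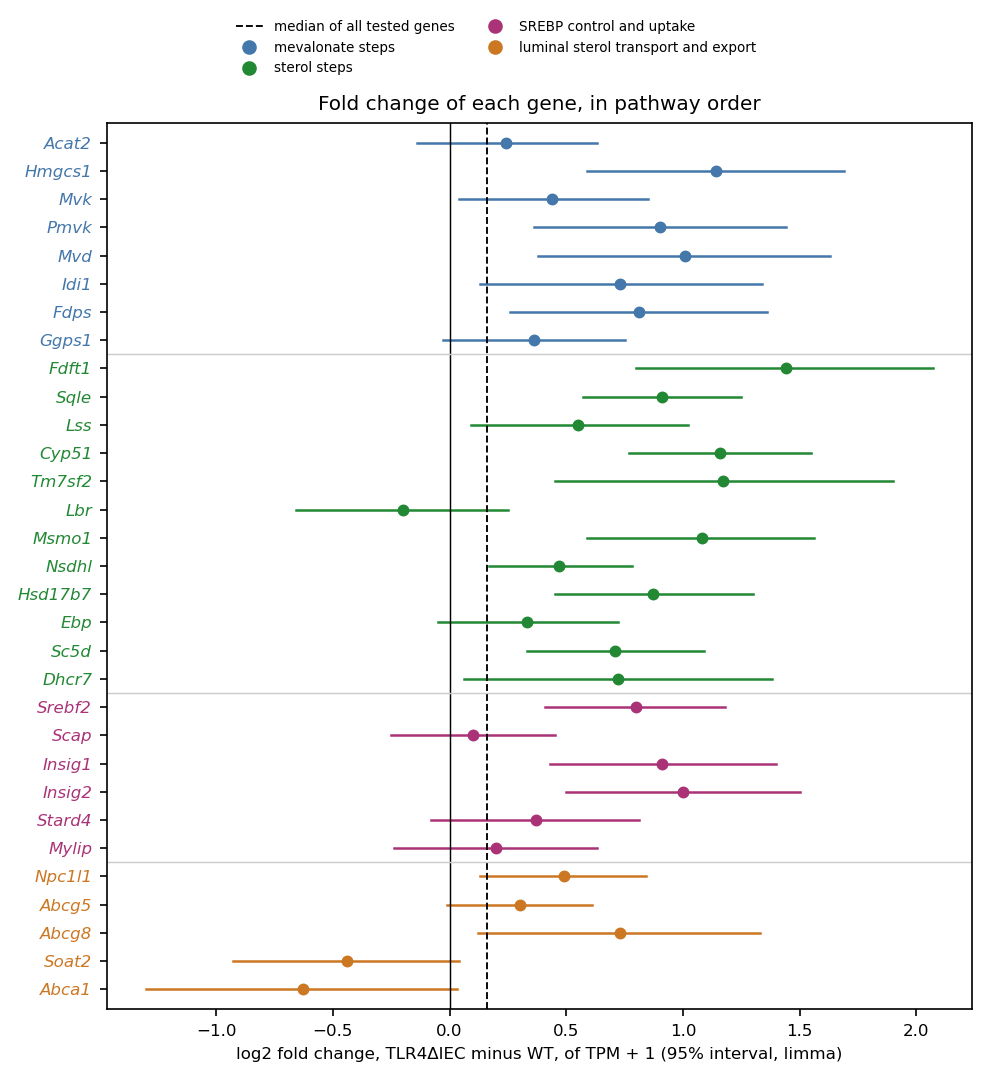
Log2 fold change (TLR4ΔIEC minus WT, log2(TPM + 1)) of each gene as a point with its 95% limma interval, in pathway order and coloured by role; the dashed line is the median of all tested genes, 0.16. Fdft1 (1.44), Tm7sf2 (1.17), Cyp51 (1.16) and Hmgcs1 (1.14) lie farthest right, and Lbr, Soat2 and Abca1 left of 0.

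All 6 genes of sterol sensing and uptake had positive fold changes. Of these, Srebf2, Insig1 and Insig2 had non-overlapping libraries and an unadjusted p under 0.05. Scap, Stard4 and Mylip had neither (median log2 fold change 0.58). Over all tested genes, 24.1% lay wholly above WT and 18.4% were higher at that limma p. Srebf2 (ENSMUSG00000022463, chromosome 15, 82147181 to 82205379, plus strand) stood at 66.6, 53.4 and 51.8 TPM across WT, against 91.0, 116 and 93.6 TPM under the TLR4ΔIEC label. The log2 fold change was 0.80 (0.41 to 1.18, limma adjusted p = 0.094). Scap, the escort of SREBP2, read 15.9, 14.3 and 12.6 TPM and then 16.3, 15.9 and 13.8 TPM, with a log2 fold change of 0.10 (−0.25 to 0.45) that turned negative under each of the 5 other scalings (−0.39 to −0.06).

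Both INSIG genes had similar values. Insig1 (chromosome 5, 28071363 to 28078662), itself a target of SREBP2, read 25.9, 22.5 and 32.5 TPM across WT, against 40.7, 53.7 and 61.4 TPM under the TLR4ΔIEC label. Insig2 (chromosome 1, 121304353 to 121332589) read 21.7, 25.0 and 31.2 TPM and then 40.05, 59.9 and 59.4 TPM. The order of the libraries was much alike in the pair, with TLR4ΔIEC replicate 1 nearest to WT in each, and the log2 fold changes were 0.91 and 1.00 (limma adjusted p = 0.101 and 0.0955).

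Stard4, a carrier that moves cholesterol between membranes, read 51.1, 47.0 and 52.6 TPM across WT, against 52.5, 62.1 and 84.2 TPM under the TLR4ΔIEC label, where WT replicate 3 lay just above TLR4ΔIEC replicate 1 (0.37, interval −0.08 to 0.81). Mylip, the LXR-induced ubiquitin ligase that degrades the low-density lipoprotein receptor, averaged 7.99 ± 1.40 and 9.28 ± 1.34 TPM (SD, n = 3 each) with overlapping libraries (0.20, interval −0.24 to 0.63).

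The 3 luminal transporters had positive fold changes, and Soat2 and Abca1, of storage and export, negative ones. Of 5 genes, Npc1l1 and Abcg8 had an unadjusted p under 0.05 and Npc1l1 and Abcg5 had libraries that did not overlap (median log2 fold change 0.30). By the same limma p 18.4% of all tested genes were higher, and 24.1% lay wholly above WT. Npc1l1 (ENSMUSG00000020447, chromosome 11, 6211013 to 6230143, minus strand), the most abundant of the 31 genes, read 180.4, 183 and 184 TPM across WT, against 244, 302 and 227 TPM under the TLR4ΔIEC label. The WT libraries were nearly equal, and the log2 fold change was 0.49 (0.13 to 0.84, limma adjusted p = 0.15).

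Abcg5 and Abcg8, whose products work as a heterodimer, are neighbours on chromosome 17 read from a shared start region in opposite directions, and 82 of their annotated exon bases overlap. Abcg5 (84658234 to 84683011, minus strand) read 99.0, 89.8 and 88.6 TPM across WT, against 105, 114 and 123 TPM under the TLR4ΔIEC label (0.30, interval −0.01 to 0.61). Abcg8 (84676302 to 84700333, plus strand) read 77.3, 45.9 and 46.8 TPM and then 71.8, 114 and 94.0 TPM (0.73, interval 0.12 to 1.33). WT replicate 1 lay above TLR4ΔIEC replicate 1 for Abcg8, so that its libraries overlapped despite the higher fold change.

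Soat2 (chromosome 15, 102150526 to 102163469), the acyltransferase that makes cholesteryl esters, read 72.3, 102 and 79.2 TPM across WT, against 55.2, 78.5 and 52.9 TPM under the TLR4ΔIEC label. Abca1 (chromosome 4, 53030787 to 53159895), which exports cholesterol to apolipoprotein A-I, read 4.0, 6.82 and 4.92 TPM and then 4.50, 2.00 and 2.77 TPM. Both overlapped between genotypes and neither had an interval that excluded 0 (−0.44, −0.93 to 0.04, and −0.63, −1.30 to 0.03). With the median of all genes brought to near 0 by median-of-ratios scaling, both had an unadjusted limma p under 0.05 as lower. That was 6.45% of the 31, against 6.16% of all tested genes.

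**Figure D3:**
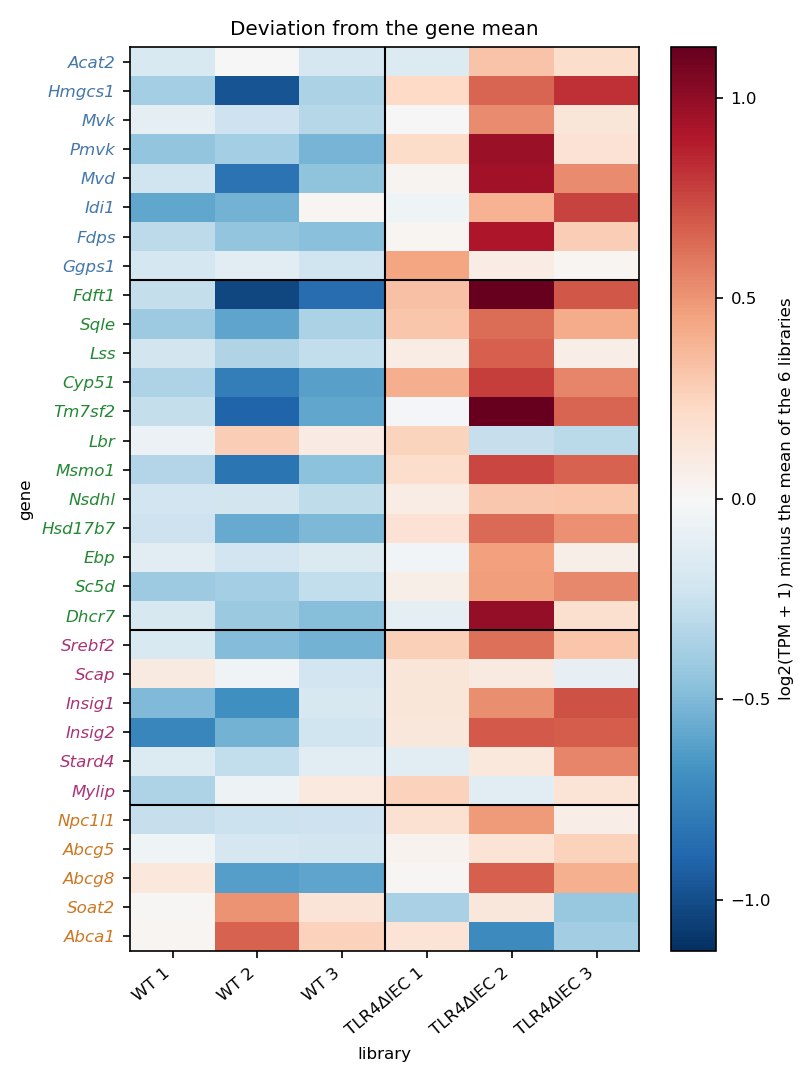
Log2(TPM + 1) of each gene (rows, in pathway order) in each library (columns) minus the gene's mean of the 6 libraries; red is above and blue below that mean. TLR4ΔIEC replicates 2 and 3 are mostly red and replicate 1 paler, and Lbr, Soat2 and Abca1 show the reverse in replicate 3 or in both.

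For the synthesis enzymes, TLR4ΔIEC replicate 1 lay between the other libraries. The median deviation of the 20 synthesis enzymes from their 6-library means was −0.25, −0.43 and −0.36 on the log2 scale in WT and 0.08, 0.65 and 0.37 in TLR4ΔIEC replicates 1, 2 and 3. Without TLR4ΔIEC replicate 1, 10 members passed an adjusted p of 0.05 in limma, where 2.74% of all genes did: Hmgcs1, Fdft1, Sqle, Cyp51, Tm7sf2, Msmo1, Hsd17b7, Sc5d, Insig1 and Insig2 (adjusted p 0.0367 to 0.0471). With libraries weighted by their quality, Fdft1, Sqle and Cyp51 passed (adjusted p 0.0406 to 0.0496), where 1.01% of all genes did. The share of members higher at an unadjusted limma p under 0.05 exceeded that of all genes in each fit without 1 library: 20, 16 and 17 of 31 without WT replicates 1, 2 and 3 (15.8%, 10.7% and 9.85% of all genes), and 25 and 19 without TLR4ΔIEC replicates 1 and 3 (21.7% and 14.2%). Abca1 was lower without WT replicate 1 (2.42% of all genes) or TLR4ΔIEC replicate 1 (5.70%), and no member was lower without WT replicate 2 (1.80%), WT replicate 3 (2.17%) or TLR4ΔIEC replicate 3 (3.19%). No member passed an adjusted p of 0.05 without WT replicates 1, 2 and 3 or TLR4ΔIEC replicates 2 and 3, where 0.238%, 0.00%, 0.0223%, 0.00% and 0.0374% of all genes did. Without TLR4ΔIEC replicate 2, highest on the first component, 17 members were higher at an unadjusted limma p under 0.05 (17.4% of all genes). Soat2 was then lower (2.13% of all). The medians of the 4 groups were 0.60, 0.72, 0.54 and 0.30 in the order above.

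TPM share a fixed total, so the counts were also taken under other scalings. At an unadjusted limma p under 0.05, 13 members were higher with median-of-ratios scaling (6.32% of all genes), 14 with quantile normalization (7.48%), 17 without the 20 highest genes (9.07%) and 14 without alpha-defensin, mitochondrial and 18S-like genes (4.35%). Soat2 and Abca1 were lower in all 4 (6.45% of the 31), where 6.16%, 5.65%, 4.17% and 7.31% of all genes were. With library weights 23 members were higher (23.1% of all genes) and Soat2 and Abca1 lower (3.36%). With replicate number as a block 19 were higher (15.2%), Soat2 was lower (2.85%) and none passed an adjusted p of 0.05 (0.00743%).

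Markers of several cell types and of gut position also differed between the labels, in both directions. The 8 epithelial markers had a geometric mean of 845, 790 and 770 TPM across WT, against 1082, 1362 and 1035 TPM under the TLR4ΔIEC label. Of the 8, 6 lay wholly above WT, where 24.1% of all tested genes did. In bulk tissue, fewer cells of a type and less RNA per cell cannot be told apart. When TPM were divided by that mean, the median of all genes became −0.29 and those of the 4 groups 0.25, 0.30, 0.07 and −0.22. On that scale Hmgcs1, Fdft1, Sqle, Cyp51, Tm7sf2 and Msmo1 were higher at an unadjusted limma p under 0.05 (6 of 31, against 1.69% of all genes) and Lbr, Soat2 and Abca1 lower (3 of 31, against 13.1% of all). Fdft1 then had a log2 fold change of 0.92 (0.41 to 1.44) and Npc1l1 of −0.03 (−0.35 to 0.28).

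Over all tested genes, 24.1% lay wholly above WT and 3.53% wholly below. Of 6 ileal markers, 5 lay wholly above WT. The ileal list summed to 3366 to 8261 TPM across WT, against 11066 to 36871 TPM under the TLR4ΔIEC label. Most of that sum was Fabp6, at 4961 and 22955 TPM on average. Fgf15, the ileal marker that overlapped, averaged 20.5 and 16.8 TPM. Of 8 proximal markers, 5 lay wholly below and 2 wholly above WT, with sums of 319 to 1059 and 200 to 328 TPM. The 6 Paneth cell markers summed to 46687 to 55667 TPM and 6864 to 34642 TPM (5 of 6 wholly below), and of 7 goblet cell markers 5 lay wholly above (12216 to 13561 and 18312 to 27131 TPM). None of these 4 lists, nor the B and plasma cell or stem and cycling cell lists, had a member at 0 in all libraries, and the part of these 6 lists in the values of the cholesterol genes was not tested. Of 6 B and plasma cell markers, the 3 plasma cell genes Jchain (600 and 188 TPM on average), Tnfrsf17 (3.95 and 1.01 TPM) and Mzb1 (25.8 and 13.5 TPM) lay wholly below WT. Cd79a (10.9 and 24.9 TPM), Cd79b (8.53 and 20.3 TPM) and Ms4a1 (1.43 and 5.06 TPM) had higher averages under the TLR4ΔIEC label, with overlapping libraries. The list summed to 587 to 764 and 53.2 to 414 TPM. Of 7 stem and cycling cell markers, Olfm4 lay wholly below WT (196 and 83.7 TPM), with list sums of 291 to 307 and 103 to 277 TPM. Smooth muscle, fibroblast, T cell, macrophage and endothelium lists overlapped in all of their members.

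**Figure D4:**
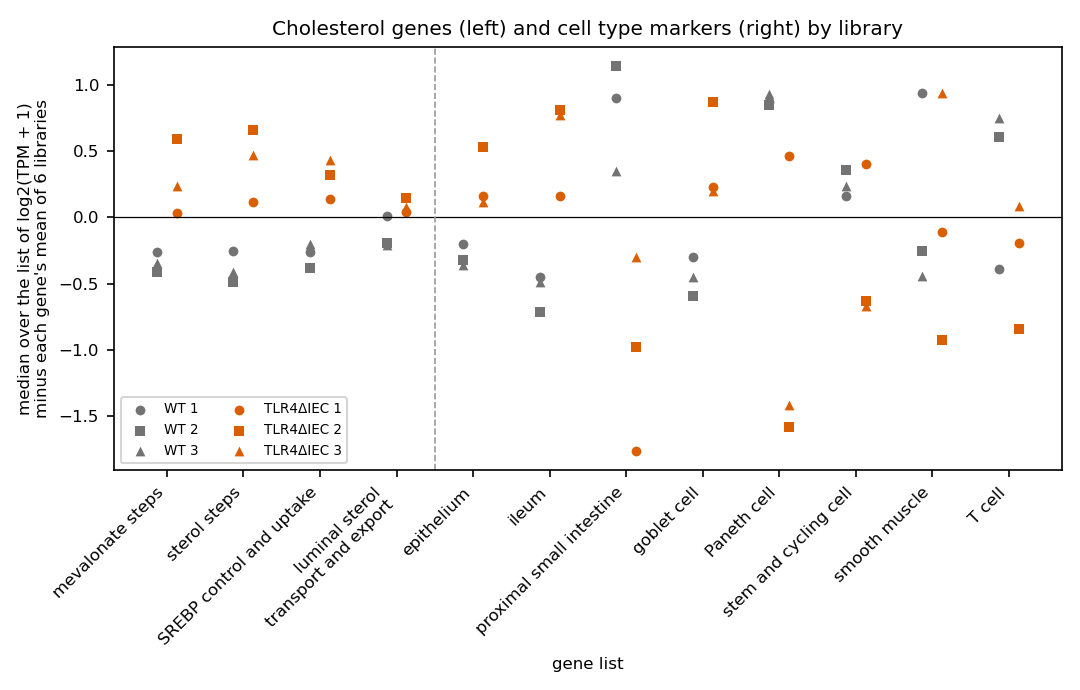
Median over each gene list of log2(TPM + 1) minus each gene's mean of the 6 libraries, 1 marker per library (WT grey, TLR4ΔIEC orange), for the 4 groups of cholesterol genes on the left and 8 marker lists on the right. The orange markers lie above the grey ones for the 4 cholesterol groups, epithelium, ileum and goblet cell lists, below them for proximal and Paneth lists, and on both sides of or among them for stem cell, smooth muscle and T cell lists.

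Genes around the pathway were described from 6 lists. Of 8 genes of SREBP processing and sterol-regulated degradation, 3 were higher at an unadjusted limma p under 0.05 and none lower, where 18.4% and 2.77% of all tested genes were, with a median log2 fold change of 0.34 against 0.16 over all tested genes. Among them were Erlin1 and Erlin2, which hold SREBP and INSIG complexes in the endoplasmic reticulum (0.52 and 0.38). The proteases that release SREBP2 in the Golgi had values of 0.15 for Mbtps1 and 0.06 for Mbtps2, both overlapping.

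Of 13 tested genes of SREBP1 and fatty acid synthesis, 5 were higher and none lower by the same measure (18.4% and 2.77% of all tested genes), with a median of 0.39. Srebf1 read 18.4, 18.0 and 19.0 TPM across WT, against 27.7, 26.6 and 24.9 TPM under the TLR4ΔIEC label (0.49, limma adjusted p = 0.111). Scd2, a fatty acid desaturase, averaged 50.3 and 134 TPM (1.37), the carboxylase Acaca 15.4 and 24.1 TPM (0.61) and the synthase Fasn 22.8 and 32.7 TPM (0.50). Each of these 4, named for their small p, lay wholly above WT. Of the 13 tested genes of the list, 5 did so and 8 overlapped, where 24.1% of all tested genes lay wholly above WT. The median of the list stayed below that of the mevalonate and sterol steps.

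LXR is the receptor that senses oxysterols and induces sterol export. Of its 6 listed genes, 2 were higher and none lower by the same measure (18.4% and 2.77% of all tested genes; median 0.36): Abca7, a lipid transporter, at 6.72 and 11.6 TPM on average (0.70), and Nr1h3, which encodes LXR alpha (0.41). Of 14 trafficking genes, 5 were higher and 1 lower, against the same shares of all tested genes, and the median of 0.22 was near the 0.16 of all. Among the higher ones were the endosomal carrier Stard3 (0.61), the membrane contact proteins Vapb and Vapa (0.54 and 0.45) and the sterol-binding protein Osbpl2 (0.40). The lower one, picked after its values were seen, was Scarb1, the high-density lipoprotein receptor, at 6.77, 6.70 and 5.10 TPM across WT, against 5.60, 2.00 and 3.12 TPM under the TLR4ΔIEC label (−0.72, limma adjusted p = 0.231).

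The branches that use isoprenoids for other products had values near those of all genes. Of 13 genes of dolichol and ubiquinone synthesis and protein prenylation, 2 were higher and none lower at an unadjusted limma p under 0.05 (18.4% and 2.77% of all tested genes), and the median was 0.15, against 0.16 over all tested genes. The 2 were Nus1, a subunit of the enzyme that makes dolichol precursors (0.40), and Rce1, the protease that trims prenylated proteins (0.55). Of 5 oxysterol enzymes only Cyp27a1 and Cyp39a1 passed the filter on low values, with log2 fold changes of −0.33 and −0.17 and overlapping libraries.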

How the data were processed

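Total RNA from small intestine was sequenced after TRIzol extraction and DNase I treatment, per the labels' protocols. Tools listed in the submitters' processing notes are fastp, HISAT and RSEM, with the build GRCm38.p5; versions, settings and use of strand are not given in the sources used here. Per the file headers, the authors deposited a TPM value of every gene for every library, plus group means that were not used. Titles of the samples gave group and replicate. Nothing states that extraction was separate for each mouse beyond 3 animals per genotype in the design text, so p-values measure the spread between these samples.

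The 13458 genes averaging 1 TPM or more were fitted as log2(TPM + 1) by limma 3.58.1 (R 4.3.3; lmFit, eBayes with trend, genotype as the single term, two-sided, Benjamini-Hochberg over all tested genes). A pseudocount of 1 TPM understates the change of low genes. The fit was tested on simulated data. Members, gene lists and tests were chosen with earlier results of these data known. Named were Tlr4, all 31 members, and for each surrounding list up to 4 genes of smallest p under 0.05, filled up to 2 by mean TPM (1 gene that this rule names is not reported here); Mbtps1, Mbtps2 and Scarb1 fall outside this rule and were chosen after their values were seen, as were the marker genes named. Coordinates are from GENCODE M21 (GRCm38). Results were recomputed with pseudocounts of 0.1 or 5 TPM, without the filter, with a minimum mean of 5 TPM, with 5 other scalings, 3 other variance settings, with a replicate block and without each library. Figures were drawn with matplotlib 3.10.9.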

Additional observations from a re-analysis of the deposited data

How the results depend on the processing

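All 19 alternatives were run. Over all tested genes the median log2 value, 0.16 as reported, became −0.01 with median-of-ratios scaling, 0.02 with quantile normalization, 0.00 without the 20 highest genes, −0.13 without alpha-defensin, mitochondrial and 18S-like genes, and −0.29 after division by the epithelium markers. In that order, members higher and lower at an unadjusted limma p under 0.05 numbered 13 and 2, 14 and 2, 17 and 2, 14 and 2, and 6 and 3, against 21 and 0 as reported. The shares of all genes that were higher moved as well, to 6.32%, 7.48%, 9.07%, 4.35% and 1.69%, against 18.4% as reported. Those lower were 6.16%, 5.65%, 4.17%, 7.31% and 13.1%, against 2.77%. The medians became 0.58, 0.47, 0.60, 0.45 and 0.25 for the mevalonate steps, 0.61, 0.50, 0.64, 0.49 and 0.30 for the sterol steps, 0.39, 0.26, 0.41, 0.26 and 0.07 for sensing and uptake, and 0.11, 0.00, 0.13, −0.02 and −0.22 for transport. Array weights gave 3 members past an adjusted p of 0.05 (1.01% of all genes). Unadjusted, 23 were higher (23.1% of all) and 2 lower (3.36%).

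Leaving out 1 library at a time gave 0 to 10 members past an adjusted p of 0.05 (0.00% to 2.74% of all genes). Unadjusted, 16 to 25 were higher (9.85% to 21.7% of all) and 0 to 1 lower (1.80% to 5.70%). Medians ran from 0.60 to 0.97 (mevalonate), 0.72 to 0.96 (sterol), 0.48 to 0.69 (sensing and uptake) and 0.25 to 0.36 (transport). Same-numbered libraries did not deviate together (correlations −0.037, 0.035 and 0.118), and not every library correlated best with its own number. With the replicate block, 0 members passed an adjusted p of 0.05 (0.00743% of all genes). Unadjusted, 19 were higher (15.2% of all) and 1 lower (2.85%).

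Of the 31 members, 21 kept 1 sign under every alternative and 10 changed it. Scap had −0.09 with median-of-ratios scaling, −0.10 with quantile normalization and −0.06 without the 20 highest genes. Without alpha-defensin, mitochondrial and 18S-like genes Acat2 had −0.07, Scap −0.21, Mylip −0.10 and Abcg5 −0.02. Divided by the epithelium markers Acat2 had −0.26, Mvk −0.06, Ggps1 −0.11, Nsdhl −0.03, Ebp −0.18, Scap −0.39, Stard4 −0.15, Mylip −0.27, Npc1l1 −0.03 and Abcg5 −0.22. Each of these scalings also lowered the median of all genes, and the cause of the sign changes was not tested. TPM keep no read depth, so precision rests on 3 libraries per genotype.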

Other observations

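Ratios of genes that work together were computed within each library after their values were seen, so they are given without a test. Srebf2 stood at 4.17, 3.73 and 4.12 times Scap in the WT libraries and at 5.57, 7.29 and 6.79 times in the libraries labelled TLR4ΔIEC (means 4.01 ± 0.242 and 6.55 ± 0.883, SD, n = 3 each). Soat2 stood at 0.401, 0.559 and 0.432 of Npc1l1 in WT and at 0.227, 0.260 and 0.233 of it in the libraries labelled TLR4ΔIEC. Neither ratio overlapped between genotypes, and a ratio within a library does not depend on a single scaling factor of that library. Insig1 to Insig2 did overlap, with a lowest value of 0.901 in WT and of 0.897 in the libraries labelled TLR4ΔIEC. The partners Abcg8 and Abcg5 had ratios of 0.780, 0.511 and 0.528 in WT and 0.683, 0.994 and 0.762 in the libraries labelled TLR4ΔIEC, with overlap as well.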
